A study of Mus musculus with 10 samples.

Results

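Basement membranes are thin sheets of matrix that lie beneath endothelium and wrap vessels and single adipocytes. They are built from a network of type IV collagen and a network of laminin, a trimer of an alpha, a beta and a gamma chain. Nidogen and the proteoglycan perlecan join both networks, and in fat the sheet around each adipocyte is assembled anew as the cell forms. The 10 genes described here were taken by symbol from the 14623 genes of the count table, and each was found once: Col4a1 and Col4a2 (the chains of the ubiquitous type IV collagen trimer), Col15a1 (type XV collagen of the outer face of the sheet), Lama2 and Lama4 (laminin alpha chains), Lamb1 and Lamb2 (laminin beta chains), Lamc1 (the common laminin gamma chain), Nid1 (nidogen-1) and Hspg2 (perlecan).

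The cells were the stromal vascular fraction (SVF) of inguinal white adipose tissue (iWAT), that is the cells left after collagenase digestion and removal of adipocytes, from 1 Bbs8 KO (Bbs8-/-) and 1 Bbs8 WT (Bbs8+/+) mouse, both lean and 7 weeks old. Bbs8, listed in the table as Ttc8, encodes a subunit of the BBSome, the complex that carries proteins out of the primary cilium. Transcripts were captured by Seq-Well S3, in which single cells share a well with a barcoded bead and each captured transcript carries a unique molecular identifier (UMI). The series text names 1 mouse a genotype, so nothing was tested between genotypes, and every interval below is a 95% interval that covers counting error only.

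The table held 8985 KO and 1929 WT cells with 3144195 and 715989 UMIs, in 5 barcode sets a genotype that carried 68989 to 701136 UMIs each. The set codes begin with KO5 or KO6 and WT3 or WT4, and end in p1, p2 or p3. Per the study's methods a pair of arrays was used per sample and the amplification reactions of an array were pooled in batches, but the sources used here do not tie the codes to arrays, pools or animals. The sets were treated as technical parts of 1 mouse, and their ranges could not be read as a spread between animals. Ttc8 had 0 UMIs in the KO cells and 5 UMIs in the WT cells, all of them in 1 of the 5 WT sets. Of 10847 barcodes, 36 lay in more than 1 set and 4 lay in 7 or more. Clusters were named from marker lists that held none of the 10 genes, and the 10 genes were kept out of the features used for clustering. P1-like cells (Dpp4 and Pi16, the multipotent progenitors; 526 KO and 226 WT cells), P2-like cells (Fgf10, the committed preadipocytes; 793 and 318) and P3-like cells (F3, Gdf10 and Inmt, the regulatory progenitors; 223 and 122) made up the stromal cells. Endothelial-like cells (Cdh5, Pecam1) numbered 669 KO and 214 WT, mural-like cells (Rgs5, the pericytes and smooth muscle) 64 and only 14. Pi16 was at 2523 CPM (UMIs of the gene for every 1000000 UMIs of the class) in KO P1-like and 96.5 CPM in KO P2-like cells, Fgf10 at 12.0 and 422 CPM, and Cdh5 at 1297 CPM in KO endothelial-like cells. Icam1, a further marker of committed preadipocytes, did not set P2-like cells apart, with 22.1 CPM in KO P2-like and 40.0 CPM in KO P1-like cells.

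The gene pair that led the results lies head to head. In GENCODE vM21 on GRCm38, Col4a1 occupied chr8:11198423-11312826 on the minus strand and Col4a2 chr8:11312805-11449287 on the plus strand, so that the annotated first exons overlapped by 22 bases, inside the 5′ untranslated exon sequence of both. The overlap is shown on the plus strand (chr8:11312801-11312830, GRCm38.p6) with its 22 bases in capitals, because both type IV collagen genes start in it and are transcribed through it in opposite directions.

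Col4a1/Col4a2 overlap: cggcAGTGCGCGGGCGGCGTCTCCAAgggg

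This stretch held 1 GC box (GGGCGG on either strand, the motif bound by Sp family factors) and 0 CCAAT boxes (CCAAT on either strand). Of 32817 RefSeq promoters, 5.76% held a GC box and 3.32% a CCAAT box in the 30 bases at the same place relative to the start site, and 35.6% and 37.4% in the whole window of 300 bases. The beta chain genes differed in the sequence before their first annotated exons. It is shown 5′ to 3′ on the plus strand because these genes had opposite patterns between P2-like cells and the other progenitors. The windows end before the first GENCODE exon (Lamb1 chr12:31265043-31265233, Lamb2 chr9:108479612-108479735), and capitals mark GC boxes. The RefSeq start sites lie further downstream, at chr12:31265293 and chr9:108479862, by unlike distances, so the windows cover unlike parts of the promoters.

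Lamb1: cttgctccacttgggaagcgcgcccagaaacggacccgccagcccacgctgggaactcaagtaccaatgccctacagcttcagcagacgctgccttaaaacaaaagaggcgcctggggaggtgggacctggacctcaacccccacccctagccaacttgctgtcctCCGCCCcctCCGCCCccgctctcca
Lamb2: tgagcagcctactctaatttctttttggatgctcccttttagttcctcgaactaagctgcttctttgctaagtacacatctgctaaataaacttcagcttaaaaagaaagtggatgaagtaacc

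The Lamb1 window had a GC content of 63.9% and 2 GC boxes, the Lamb2 window 37.9% and 0. Over the same stretch of all promoters, 23.1% held a GC box at the length of the Lamb1 window (191 bases) and 13.3% at that of the Lamb2 window (124 bases). Promoter windows were found for 8 of the 10 genes, of which 6 held a GC box and 4 a CCAAT box, against 35.6% and 37.4% of all promoters. The Col4a1 and Col4a2 windows overlap and share 1 GC box, so they are not separate cases. The counts come from the 3′ ends of transcripts and carry no information on start sites or on which factor binds there.

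All 10 genes were expressed by stromal cells. Cells were thinned to 200 UMIs, and the 3104 cells with fewer UMIs were left out of the thinned shares. This kept 653 of 793 KO and 290 of 318 WT P2-like cells. At least 1 UMI of the 10 genes was then seen in 83.5% of KO P2-like cells (80.4 to 86.2%) and 93.8% of WT P2-like cells (90.4 to 96.3%). The share was 71.7% and 72.0% in P1-like, 65.7% and 79.8% in P3-like and 59.0% and 55.5% in endothelial-like cells. In T cell-like and B cell-like cells together, which should not make basement membrane, it was 6.95% in KO and 9.88% in WT cells. The lymphocyte share is used as the reference for RNA from other cells, and it is less clean in WT than in KO. The 10 T cell markers summed to 4365 CPM in KO and 2996 CPM in WT lymphocytes, the 8 B cell markers to 5975 and 3829 CPM, and Ptprc (CD45) was at 2684 and 1315 CPM. Cd79a had 1 UMI and Cd3e 2 UMIs in all WT lymphocytes, and the part of wrongly assigned or mixed cells in the WT level was not tested. The 10 genes summed to 11504 CPM in KO P2-like and 5639 CPM in KO endothelial-like cells, and to 424 CPM in KO lymphocytes against 1272 CPM in WT lymphocytes.

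**Figure D1:**
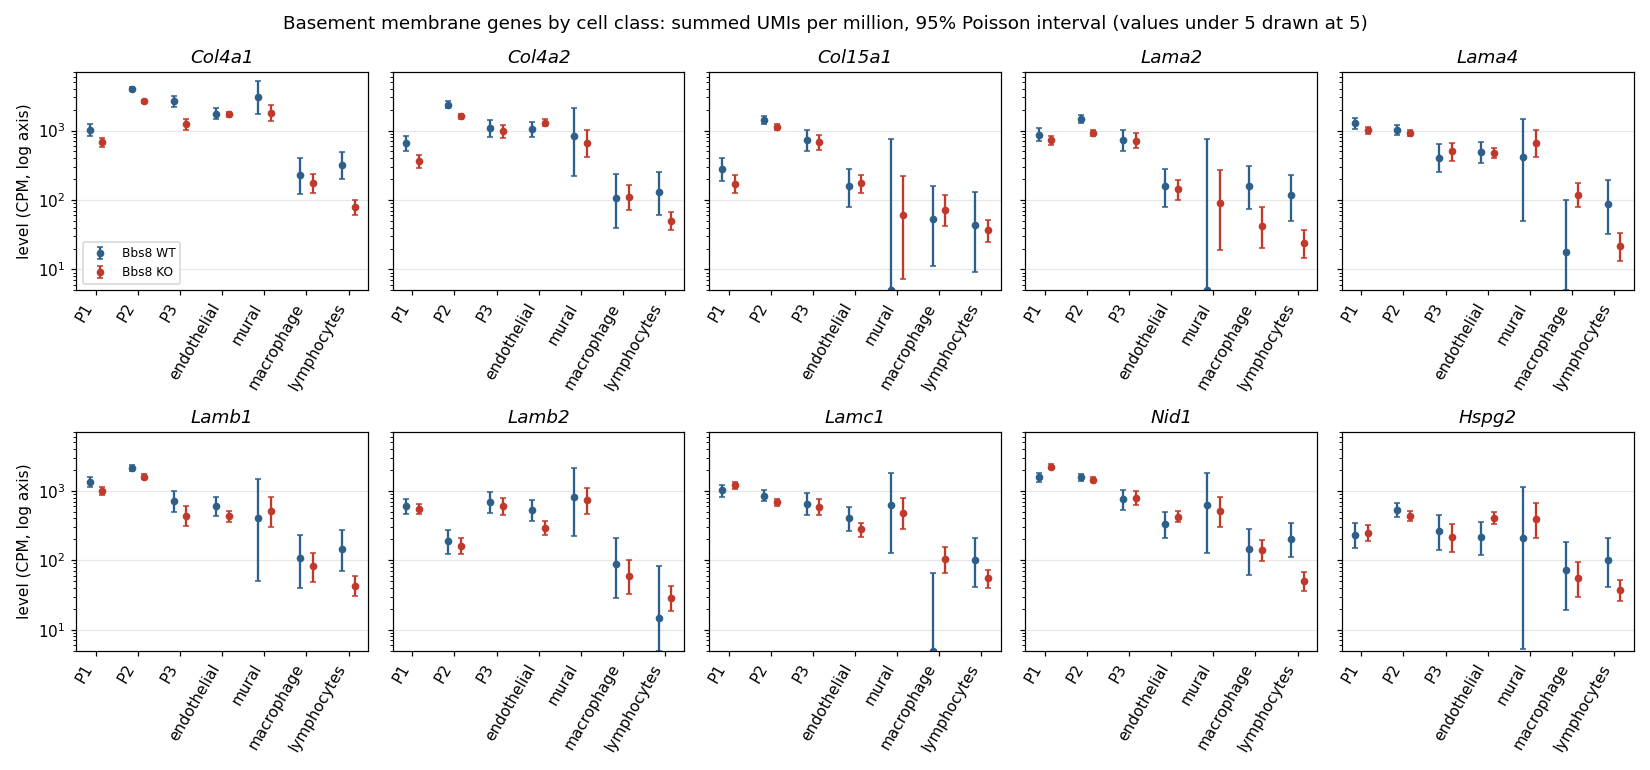
Level of each of the 10 genes in 7 cell classes (CPM, log axis) in the Bbs8 KO (red) and Bbs8 WT (blue) mouse, with 95% Poisson intervals. Col4a1, Col4a2 and Col15a1 were highest in P2-like cells, Lamb2 was low there, and every gene was higher in each progenitor class than in lymphocytes of the same mouse, though with overlapping intervals for WT Hspg2 in P1-like and P3-like cells. In WT endothelial-like cells the intervals of Lama2, Nid1, Hspg2 and Col15a1 overlap with those of WT lymphocytes.

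The collagen chains marked P2-like cells. Col4a1 was at 2622 CPM in KO P2-like cells (2458 to 2794; 951 UMIs), followed by 1790 CPM in mural-like, 1714 in endothelial-like, 1229 in P3-like and 676 in P1-like cells. In the WT mouse the order was P2-like at 3964 CPM (3651 to 4296; 594 UMIs), mural-like at 3091, P3-like at 2651, endothelial-like at 1747 and P1-like at 1011. Mural-like and endothelial-like cells did not differ beyond their intervals in the KO mouse, nor did mural-like and P2-like or P3-like cells in the WT mouse. P2-like cells exceeded P1-like cells by a log2 ratio of 1.95 in KO and 1.97 in WT, with intervals above 0 in both. Col4a2, its partner in the trimer, had the same lead class, with 1593 CPM in KO and 2362 CPM in WT P2-like cells, and was lowest of the stromal classes in P1-like cells (360 and 661 CPM).

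Col15a1 dropped outside P2-like and P3-like cells. It stood at 1108 CPM in KO and 1428 CPM in WT P2-like cells, at 684 and 734 CPM in P3-like cells, and at 172 and 282 CPM in P1-like cells. Endothelial-like cells had 173 CPM in KO and 158 CPM in WT. In mural-like cells 2 KO UMIs and 0 WT UMIs were found, and the interval of 0 in 4853 UMIs reaches 760 CPM. The log2 ratio of P2-like over P1-like cells was 2.65 in KO and 2.32 in WT.

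Of the laminin alpha chains, Lama2 separated every progenitor class from endothelial-like cells, and Lama4 separated P1-like and P2-like but not P3-like cells from them. For endothelial-like over all stromal cells the log2 ratio was -2.48 in KO and -2.83 in WT for Lama2. For Lama4 it was -0.90 (-1.20 to -0.63) and -1.04 (-1.61 to -0.54). Lama2, the alpha chain of muscle and stromal basement membranes, was at 921 CPM in KO and 1468 CPM in WT P2-like cells, at 720 and 875 CPM in P1-like and at 716 and 734 CPM in P3-like cells, against 143 and 158 CPM in endothelial-like cells. The WT endothelial-like value rests on 11 UMIs, 7 of them in the set WT3_p2, and its interval overlapped with that of WT lymphocytes at 117 CPM. Mural-like cells held 3 KO UMIs of Lama2 (91.0 CPM) and 0 WT UMIs. The WT interval reaches 760 CPM, which does not set WT mural-like apart from WT P1-like or P3-like cells. Lama4, the alpha chain of endothelial and adipocyte basement membranes, was highest in P1-like cells (1004 and 1264 CPM) and P2-like cells (926 and 1028 CPM), which overlapped in both mice, and lower in P3-like (502 and 408 CPM), endothelial-like (477 and 487 CPM) and mural-like cells (667 and 412 CPM, the WT value on 2 UMIs), whose intervals overlapped. The interval of mural-like cells also overlapped with those of P1-like and P2-like cells in both mice. Of the UMIs of both alpha chains, Lama4 therefore took 77.0% in KO (69.8 to 83.2%; 165 UMIs) and 75.6% in WT endothelial-like cells (60.5 to 87.1%; 45 UMIs), and 88.0% of 25 UMIs in KO mural-like cells. Its share was 58.2% in KO and 59.1% in WT P1-like cells, 50.1% in KO and 41.2% in WT P2-like cells, and 41.2% and 35.7% in P3-like cells. The share compares UMI counts of a gene pair between classes or mice and does not give the amount of a chain.

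The beta chains ran against each other between P2-like cells and the other progenitors. Lamb1, the widespread beta chain, was at 1602 CPM in KO and 2129 CPM in WT P2-like cells, at 992 and 1361 CPM in P1-like, and at 438 and 714 CPM in P3-like cells. Lamb2, the beta chain of vessel and synaptic basement membranes, was lowest of the named stromal and vascular classes in P2-like cells, with 163 CPM in KO (124 to 210; 59 UMIs) and 187 CPM in WT (124 to 270; 28 UMIs). It was at 548 and 603 CPM in P1-like, 598 and 693 CPM in P3-like, 289 and 530 CPM in endothelial-like and 728 and 824 CPM in mural-like cells, where the WT value rests on 4 UMIs. P2-like cells were below P1-like cells by a log2 ratio of -1.72 in KO (-2.22 to -1.30) and -1.66 in WT (-2.39 to -1.02), while Lamb1 was above by 0.69 and 0.64. Lamb2 took 9.22% of the UMIs of both beta chains in KO P2-like cells (7.09 to 11.7%) and 8.07% in WT P2-like cells (5.43 to 11.5%). The share was 35.6% and 30.7% in P1-like, 57.7% and 49.3% in P3-like, 40.3% and 46.8% in endothelial-like and 58.5% and 66.7% in mural-like cells. The interval of P2-like cells lay below those of P1-like, P3-like, endothelial-like and mural-like cells in both mice. It overlapped with that of WT lymphocytes (1 of 11 UMIs) and of KO epithelial-like cells (0 of 5 UMIs), which rest on few UMIs. In WT it also overlapped with that of the unnamed cells (12.3%, 7.05 to 19.5%, on 122 UMIs).

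**Figure D2:**
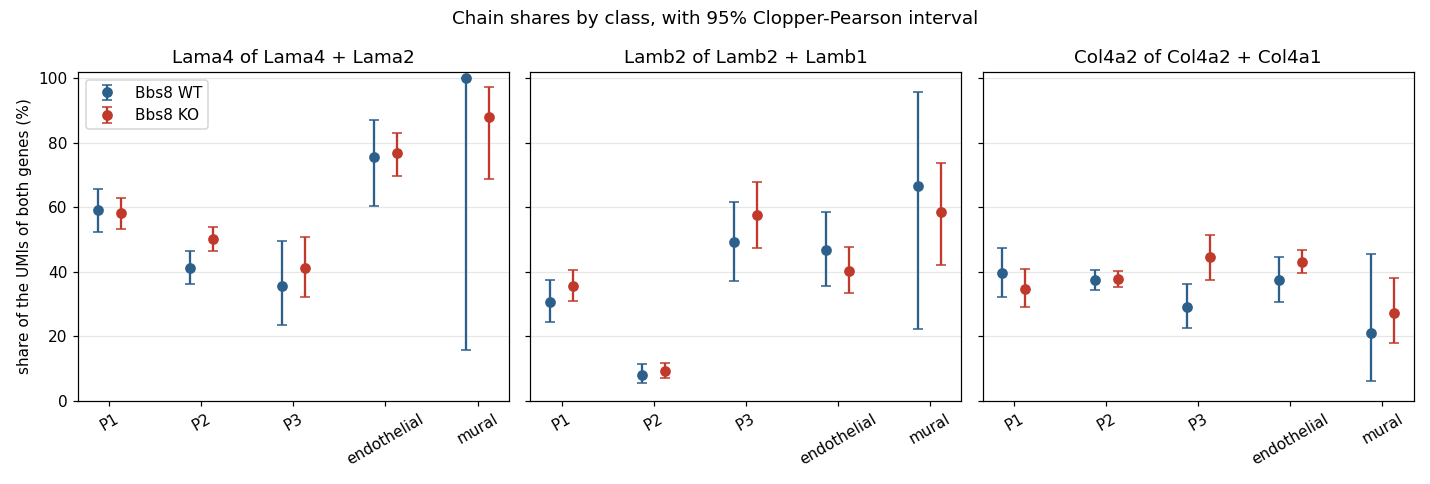
Share of the UMIs of 2 related chains that belonged to the named chain (%, axis from 0) by cell class, in the Bbs8 KO (red) and WT (blue) mouse, with 95% Clopper-Pearson intervals. Lamb2 fell to 9.22% in KO and 8.07% in WT P2-like cells, Lama4 reached 77.0% and 75.6% in endothelial-like cells, and the Col4a2 share lay between 29.0% and 44.4% in the progenitor and endothelial-like classes.

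The Col4a2 share of both type IV collagen chains varied far less between classes than the laminin shares. It was 37.8% in KO and 37.3% in WT P2-like cells, 34.7% and 39.5% in P1-like cells and 43.1% and 37.4% in endothelial-like cells. P3-like cells differed between the mice, with 44.4% in KO (37.6 to 51.5%; 207 UMIs) and 29.0% in WT (22.5 to 36.1%; 183 UMIs).

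The laminin gamma chain and nidogen were lower in P3-like than in P1-like cells. Lamc1 was at 1195 CPM in KO and 1011 CPM in WT P1-like cells, at 684 and 854 CPM in P2-like and at 588 and 653 CPM in P3-like cells. Nid1, which joins laminin to type IV collagen, was at 2227 and 1565 CPM in P1-like, 1453 and 1555 CPM in P2-like and 791 and 754 CPM in P3-like cells. For P3-like over P1-like cells the log2 ratio was -1.02 in KO and -0.63 in WT for Lamc1 and -1.49 and -1.05 for Nid1. The Nid1 log2 ratio of P2-like over P1-like cells was -0.61 in KO (-0.79 to -0.44) and -0.01 in WT (-0.31 to 0.29), so that P1-like cells led in the KO mouse only. Hspg2 was at 433 and 527 CPM in P2-like and at 410 and 215 CPM in endothelial-like cells, so that the place of endothelial-like cells differed between the mice.

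By a log2 ratio of at least 1 in both mice, 3 of the 10 genes (Col4a1, Col4a2, Col15a1) were higher in P2-like than in P1-like cells and 1 (Lamb2) was lower. Among all 2043 genes counted, 4.75% were higher and 4.21% lower. Their log2 ratios over all 10 genes had a median of 0.52 in KO and 0.69 in WT, against 0.13 and 0.09 for all genes. In KO this median was -0.27 when cells were thinned to 200 UMIs and clustered again, which left 1322 KO P2-like and 337 KO P1-like cells. For endothelial-like over all stromal cells, 0 of the 10 genes were higher (6.62% of 3140 genes) and 5 were lower (Col15a1, Lama2, Lamb1, Lamc1, Nid1; 13.7% of all genes), with a median of -1.21 in KO and -1.08 in WT. These class differences describe the clusters and were not tested.

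Stromal cells gave 44.8% (Hspg2) to 67.1% (Lama2) of the KO UMIs and 63.3% (Lamb2) to 79.7% (Col15a1) of the WT UMIs of a gene. With unnamed cells counted among the others, KO stromal cells gave less than all other cells together for Col4a1 (49.5%), Col4a2 (46.7%), Lamb2 (48.0%) and Hspg2. Unnamed clusters held 21.9% to 26.0% of the KO UMIs of a gene, and with these left out the KO stromal share was 64.9% for Col4a1, 61.8% for Col4a2, 63.3% for Lamb2 and 57.3% for Hspg2. The 8 stromal markers of the naming list summed to 25561 CPM in KO and 46325 CPM in WT unnamed cells, against 1989 and 4955 CPM in lymphocytes. The stromal share therefore depends on how the unnamed cells are counted. P2-like cells held 38.1% of the KO and 48.4% of the WT Col4a1 UMIs, and 48.3% and 61.1% of the Col15a1 UMIs. Endothelial-like cells gave 18.3% of the KO and 9.94% of the WT Col4a1 UMIs. For Lamb2 the P1-like cells gave the most of the named classes, with 26.1% and 31.6%. P2-like cells were 8.83% of KO and 16.5% of WT cells, and these shares enter the sources of UMIs directly.

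The genotypes were compared within each class, because the study asked how loss of Bbs8 alters the cells of the fat. In P2-like cells all 10 genes were lower in KO than in WT in CPM (6 of 10 per UMI of 8 stromal markers). Of all 4333 genes counted, 1966 were lower in KO in CPM. The 10 genes had a median log2 ratio in CPM of -0.34 (range over the 25 pairs of 1 KO and 1 WT set, -0.64 to -0.18), while the median of all genes counted was 0.08. Col4a1, Col4a2, Col15a1, Lama2, Lamb1 and Lamc1 were lower under every alternative tried and without each set in turn, and the other 4 genes were not. The share of all genes that kept their direction in this way is not given here. Leaving out the set WT4_p3 gave 0.14 for Lama4, and leaving out WT4_p2 gave 0.23 for Lamb2 and 0.13 for Hspg2. Past a log2 ratio of 0.5, 3 of the 10 were lower (18.2% of all genes) and 0 were higher (27.6% of all genes). For the same 3 genes, Col4a1, Col4a2 and Lama2, every KO set lay below every WT set, which held for 1.55% of all genes, and for 0 of the 10 every KO set lay above, which held for 3.18%.

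Col4a1 in P2-like cells was at 2198, 2601, 2811, 2820 and 2699 CPM in the 5 KO sets and at 3967, 4023, 4772, 3918 and 3717 CPM in the 5 WT sets. The sets did not overlap, and the log2 ratio was -0.60 (-0.75 to -0.45). Thinned to 200 UMIs, 36.8% of KO cells (33.0 to 40.6%) and 48.3% of WT cells (42.4 to 54.2%) held a Col4a1 UMI, against 1.52% and 2.91% of lymphocytes. Unthinned and over all cells of the class the shares were 51.8% and 69.8%.

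Col4a2 was at 1795, 1301, 1596, 1817 and 1514 CPM in the KO sets and at 2629, 2357, 3044, 2379 and 1943 CPM in the WT sets, with a log2 ratio of -0.57 (-0.76 to -0.37). Lama2 was at 1016, 875, 975, 770 and 975 CPM in the KO sets and at 1246, 1747, 1728, 1395 and 1436 CPM in the WT sets, with a log2 ratio of -0.67 (-0.92 to -0.42). All KO sets of both genes were below the lowest WT set. Lamb1 (-0.41, -0.61 to -0.21) and Col15a1 (-0.36, -0.61 to -0.12) were lower by intervals that excluded 0, but their sets overlapped. Lamc1 was at -0.32, Hspg2 at -0.28, Lamb2 at -0.19, Lama4 at -0.15 and Nid1 at -0.10.

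**Figure D3:**
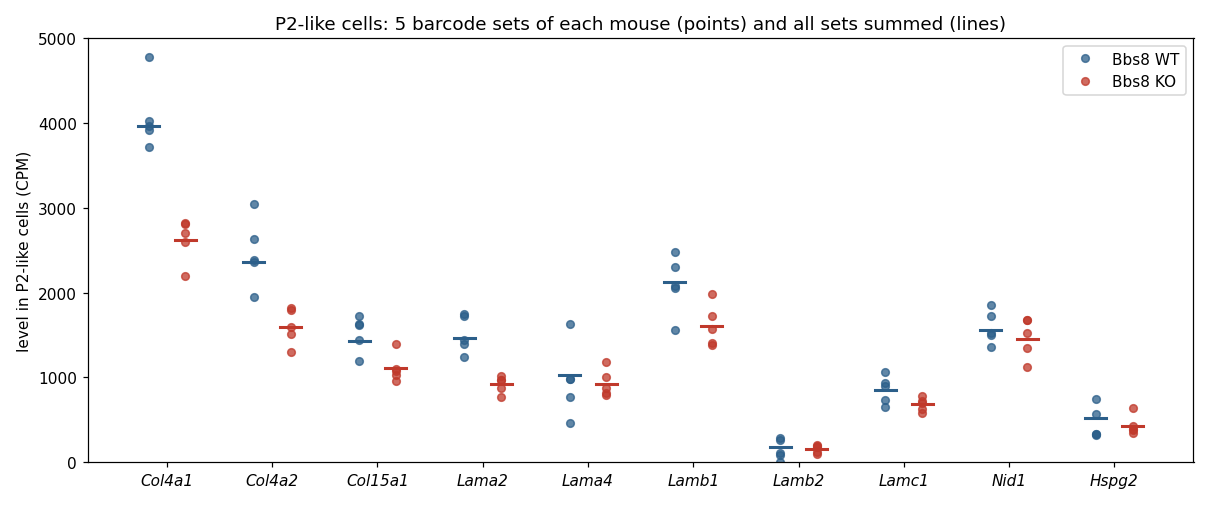
Level of each of the 10 genes in P2-like cells (CPM, linear axis from 0) in each of the 5 barcode sets of the Bbs8 WT (blue) and KO (red) mouse, with lines at the level over all sets of the mouse. The KO points of Col4a1, Col4a2 and Lama2 lie below all WT points, those of the other 7 genes overlap with them.

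Other transcripts of the P2-like cells moved with these values. The 8 stromal markers (among them Pdgfra, Dcn, Col1a1 and Lum) summed to 72257 CPM in KO P2-like cells (65667 to 80976 over the sets) and 88385 CPM in WT (83915 to 94750), a log2 ratio of -0.29 with no overlap of sets. The 8 B cell markers summed to 742 CPM in KO (565 to 958) and 127 CPM in WT (0 to 143), and the 10 T cell markers to 562 and 174 CPM; 8 and 10 markers were detected in KO and 5 and 7 in WT. Per UMI of the stromal markers, the median of the 10 genes was -0.051, with Col4a1 at -0.30, Col4a2 at -0.28 and Lama2 at -0.38. On that scale 4 genes were above 0, Nid1 at 0.19, Lama4 at 0.14, Lamb2 at 0.096 and Hspg2 at 0.0091. The part of the lymphocyte transcripts in the difference was not tested. In the opposite direction, lymphocytes held Col4a1 at 78.4 CPM in KO and 322 CPM in WT, and subtracting the lymphocyte level of each mouse from its P2-like cells left a Col4a1 log2 ratio of -0.52 and a median of -0.35. The subtracted levels come from lymphocytes that differ in marker content between the mice, as given above.

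The other progenitors gave a less even picture. In P1-like cells 3 of the 10 genes were lower in KO past a log2 ratio of 0.5 (20.9% of 2819 genes) and 1 was higher (24.2%), with a median of -0.31. Col4a2 was at -0.87 (-1.35 to -0.40), Col15a1 at -0.70 (-1.43 to 0.02) and Col4a1 at -0.58 (-0.94 to -0.21), which became -0.21 after the lymphocyte level was subtracted, a value that rests on the less clean WT lymphocytes, and 0.20 for the KO5 against the WT3 sets, where the median was 0.17. In P1-like cells only Col4a2, Lamb1 and Nid1 kept their direction under every alternative tried and without each set in turn. Nid1 went the other way, at 0.51 (0.25 to 0.77), with 2245, 1531, 2381, 2174 and 2767 CPM in the KO sets and 2030, 1107, 1972, 1471 and 1690 CPM in the WT sets. The KO set with the lowest level lay among the WT sets. The stromal markers of P1-like cells differed by -0.08. The B cell markers summed to 764 CPM in KO (637 to 1049 over the sets) and 262 CPM in WT (0 to 314), the T cell markers to 604 and 165 CPM, and their part in the differences was not tested.

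In P3-like cells 2 of the 10 genes were lower (20.2% of 1011 genes) and 0 higher (26.8%), with a median of -0.14. The stromal markers of P3-like cells differed by -0.22, and per UMI of these markers the median was 0.081. The B cell markers summed to 791 CPM in KO and 265 CPM in WT P3-like cells and the T cell markers to 802 and 163 CPM, and their part was not tested. Col4a1 had the largest log2 ratio of the 10 genes in the progenitors, -1.11 (-1.48 to -0.74), from 1229 CPM in KO (115 UMIs) and 2651 CPM in WT (130 UMIs). Every KO set of Col4a1 lay below every WT set, which held for 1 of the 10 genes and for 9 of all 1011 genes counted. Lamb1 was at -0.70 (-1.39 to -0.01) on 41 and 35 UMIs and lost its direction at a minimum of 200 genes a cell, where the log2 ratio was 0.085. Only Col4a1 kept its direction in P3-like cells under every alternative tried and without each set in turn.

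In endothelial-like cells the intervals of both type IV collagen chains included 0. Col4a1 was at 2036, 2243, 1455, 1672 and 1430 CPM in the KO sets and at 1788, 2274, 2538, 1291 and 1673 CPM in the WT sets, with a log2 ratio of -0.03 (-0.32 to 0.27). The KO and WT sets lay in one range, and the interval leaves room for a difference of about the size of its bounds. Col4a2 was at 0.31 (-0.05 to 0.70). Of the 10 genes 2 were lower past a log2 ratio of 0.5 (Lamb2 at -0.86, -1.46 to -0.27, but at 0.25 among the sets coded p1 and 0.048 among those coded p3, and Lamc1 at -0.52, -1.17 to 0.16), against 19.9% of 3276 genes, and 1 was higher (Hspg2 at 0.92, 0.15 to 1.82, on 109 KO and 15 WT UMIs), against 32.9%. The median was -0.03, and whether it differed from that of P2-like cells was not tested. The B cell markers summed to 1248 CPM in KO and 200.5 CPM in WT endothelial-like cells and the T cell markers to 936 and 401 CPM, and their part was likewise not tested.

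**Figure D4:**
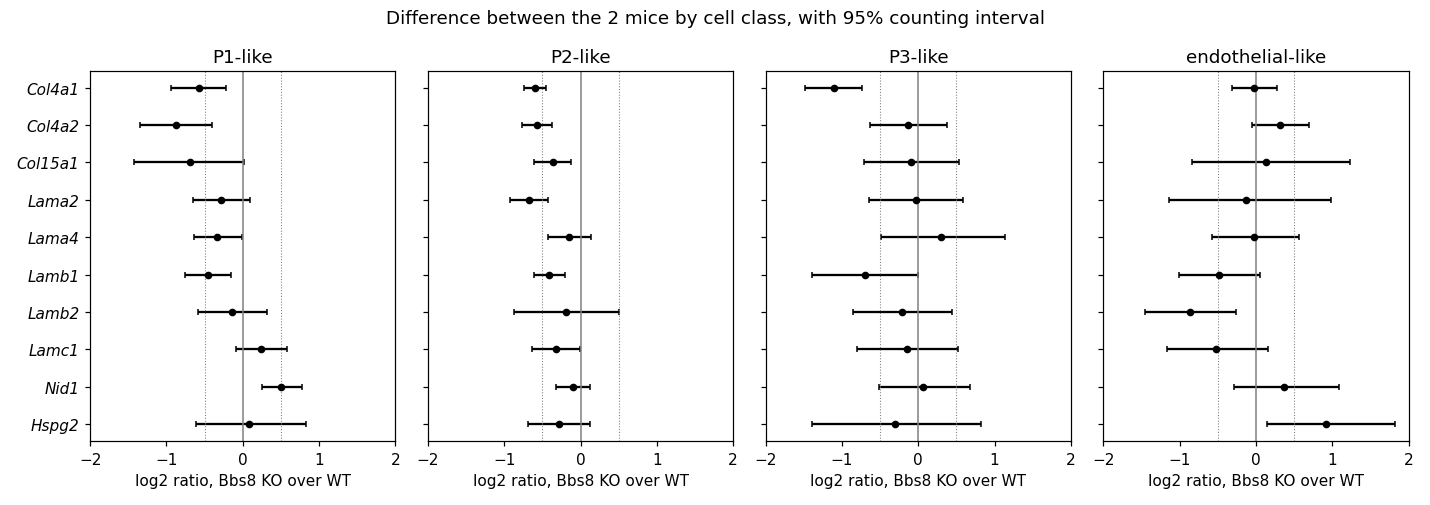
Log2 ratio of Bbs8 KO over WT for each of the 10 genes in 4 cell classes, with exact 95% counting intervals; dotted lines stand at -0.5 and 0.5. In CPM all 10 points lie below 0 in P2-like cells (6 of 10 per UMI of the stromal markers), as do 1966 of all 4333 genes counted. Col4a1 is at -0.58 in P1-like, -1.11 in P3-like and -0.03 in endothelial-like cells.

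Mural-like cells were too few for a genotype comparison of single genes. Their Col4a1 stood at 1790 CPM in KO (1362 to 2308; 59 UMIs) and 3091 CPM in WT (1730 to 5098; 15 UMIs), and 9 of the 10 genes had 4 or fewer WT UMIs. Epithelial-like cells, the mammary cells of the inguinal depot, had Col4a1 at 193 CPM in KO (6 UMIs) and 559 CPM in WT (24 UMIs). Macrophage-like cells had 175 and 232 CPM, next to 78.4 and 322 CPM in lymphocytes.

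P2-like cells were further divided into 3 subclusters. Subcluster 0 (513 KO and 221 WT cells) had a median of 279 UMIs a cell and was led by Lyz1, Cd3g and F13a1, which are transcripts of immune cells. Subcluster 1 (172 and 51 cells) had a median of 735 UMIs a cell and was led by Car3, a carbonic anhydrase of adipocytes, and subcluster 2 (108 and 46 cells) by Crabp1 and Crispld1. Col4a1 was at 2263 CPM in KO and 3983 CPM in WT cells of subcluster 0, at 3270 (2975 to 3587) and 3992 CPM (3421 to 4631) in subcluster 1 and at 2126 and 3839 CPM in subcluster 2. In KO cells the interval of subcluster 1 lay above those of subcluster 0 (2038 to 2505 CPM) and subcluster 2 (1778 to 2523 CPM). The WT values lay between 3839 and 3992 CPM with overlapping intervals. They rest on fewer UMIs (333, 174 and 87), and the interval of subcluster 2 (3075 to 4735 CPM) leaves room for variation in WT too. In subcluster 1 the intervals of the mice overlapped. Over the genes counted, the median KO over WT ratio (log2) was -0.52 in subcluster 0, -0.20 in subcluster 1 and -0.76 in subcluster 2, on 10, 10 and 9 genes. Lama2 was highest in subcluster 2 in both mice, with 1298 and 2206 CPM, against 722 and 1387 CPM in subcluster 0. When the 10 genes were left among the clustering features, the subcluster with the most UMIs a cell (144 KO and 27 WT cells) had a median of 0.13, and the others -0.63 and -0.32.

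Further genes of the pathway were read from 3 lists. Of 30 other basement membrane genes in the table, 12 had at least 20 UMIs in P2-like cells, 4 of them lower in KO and 0 higher past a log2 ratio of 0.5 (18.2% and 27.6% of all genes), with a median of -0.26. Fbln2 (fibulin-2, a linker of the sheet to elastic fibres) was at 394 CPM in KO and 834 CPM in WT, a log2 ratio of -1.07 (-1.44 to -0.72) with no overlap of sets. Fbln1 was at -1.47 (-2.55 to -0.60) on 18 KO and 22 WT UMIs. Smoc2 was at -0.70 (-1.49 to 0.05) and Vwa1 at -0.65 (-1.66 to 0.32), and the sets of these genes overlapped. Col18a1 (type XVIII collagen), a further P2-like gene with 987 and 1101 CPM there against 104 and 156 CPM in P1-like cells, was at -0.16, Sparc, which binds collagen, at -0.13, and Agrn (agrin) at 0.25. Tinagl1, a matrix protein of vessels, had 398 and 358 CPM in endothelial-like and 8.27 and 0 CPM in P2-like cells.

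Of 20 receptor genes in the table, 12 were counted in P2-like cells, 1 of them lower and 0 higher (18.2% and 27.6% of all genes), with a median of -0.16. Itgb1, the beta chain shared by the laminin and collagen integrins, was at 673 CPM in KO and 767 CPM in WT P2-like cells and at 883 and 1131 CPM in endothelial-like cells. Itga1 and Itga6, the alpha chains that bind type IV collagen and laminin, were higher in endothelial-like than in P2-like cells, with 507 and 415 against 52.4 and 40.0 CPM for Itga1 and 695 and 387 against 22.1 and 0 CPM for Itga6. Mural-like cells had Itga1 at 607 and 412 CPM (20 KO and 2 WT UMIs) and Itga6 at 60.7 and 0 CPM (2 KO and 0 WT UMIs). The WT values rest on too few UMIs to be set against endothelial-like cells. Ddr2, a collagen receptor, was at 350 and 414 CPM in P2-like, Dag1 (dystroglycan) at 146 and 147, Sdc2 and Sdc4 (syndecans) at 157 and 127 and at 154 and 200, and Cd44, which binds hyaluronan, at 52.4 and 86.7 CPM.

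All 15 genes of collagen folding and export were counted in P2-like cells, 4 lower and 4 higher in KO (18.2% and 27.6% of all genes), with a median of 0.11. Serpinh1 (HSP47, the collagen chaperone) was at 805 CPM in KO and 1281 CPM in WT, a log2 ratio of -0.67 (-0.94 to -0.40) with no overlap of sets. The prolyl hydroxylase subunits P4ha1 and P4hb were at -0.51 and -0.32, and Mia3, which loads collagen into export vesicles, at -0.49. Colgalt1, a collagen galactosyltransferase, was at 0.61, P3h3 at 0.54, Plod3 (a lysyl hydroxylase) at 0.41 and Pxdn, which crosslinks type IV collagen, at 0.35. The intervals of P3h3, Plod3 and Pxdn included 0, as did those of P4ha1 and Mia3.

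Over 24 points (12 classes in each mouse), the mean standardised profile of the 10 genes was followed most closely by Col6a2 (Pearson r of 0.94), Col6a1 (0.93), Pkd2 (0.93), Itih5 (0.92) and C1s1 (0.92) among genes outside the lists. The genes themselves had r of 0.82 (Lama2) to 0.95 (Lama4) with a profile they are part of. The points share libraries and depth, and r is a description. Col6a2 was at 1742 CPM in KO and 1828 CPM in WT P2-like cells and at 124 and 215 CPM in endothelial-like cells.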

How the data were processed

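Cells of the iWAT SVF of 1 Bbs8 KO and 1 Bbs8 WT mouse were profiled by Seq-Well S3. The deposited table holds raw UMI counts of each gene in each cell. Per the study's methods, the authors demultiplexed with bcl2fastq 2.20, aligned with STAR to mm10 (GENCODE vM16), evened out depth between batches and filtered cells; whether the deposited counts precede the depth step is not given in the sources used here. Cells in the table had 101 to 994 genes and at most 20.0% mitochondrial UMIs, and no further filter was applied. Set codes could not be matched to labelled samples and 0 columns were left unmapped, and the series text names 1 mouse a genotype, so sets were treated as technical.

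Sets were integrated and clustered in Seurat 5.3.0 (R 4.3.3; 2000 features without the 10 genes, 30 dimensions, resolution 0.8; clusters under 60 cells left out). Among lists with at least 3 raised markers, a cluster was named from that with the highest mean fold over the other cells (log2, above 1 for broad classes, 0.5 for subtypes); the mesothelial list, of which the table held only Krt19, scored higher in the epithelial-like cluster but could name none; these thresholds were set after the clusters were seen, and 4 clusters (2962 KO and 369 WT cells) stayed unnamed. No doublet caller was run; an alternative left out cells with at least 2 UMIs of another class's list. UMIs were summed per class and mouse. Log2 ratios used CPM with a pseudocount of 5 CPM, for genes with at least 20 UMIs in both mice together; intervals are 95% (Poisson, Clopper-Pearson, exact conditional). The scripts were tested on simulated data. Scaling alternatives used edgeR 4.0.16 (TMM) and DESeq2 1.42.0 (size factors). Named were all 10 genes, the 8 genes with the most UMIs of each further list, and the 5 genes (at least 200 UMIs) most like the mean profile of log2(CPM + 20). The 10 genes and the lists were chosen with earlier results of these data known. Depth was 68989 to 701136 UMIs a set.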

Additional observations from a re-analysis of the deposited data

Results flagged for a closer look

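Of 60 groups of 5 barcode sets (10 genes, 3 classes, 2 genotypes), 3 held a set that stood apart from the others by Dixon's criterion, and chance alone flags about 1 in 20 groups, which is 3 here. Lamc1 in P1-like cells of 1 WT set was at 2331 CPM on 13 UMIs, while the other WT sets were between 692 and 1119 CPM. Lama2 in endothelial-like cells of 1 WT set was at 637 CPM on 7 UMIs, with the others between 0 and 111 CPM. Lamb2 in endothelial-like cells of 1 KO set was at 129 CPM on 5 UMIs, with the others between 291 and 350 CPM.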

How the results depend on the processing

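No paired analysis was possible because each genotype is 1 mouse and no result comes from a test; the codes p1, p2 and p3 occur in both genotypes, but the sources used here do not say what they mark. Of 272 values of the 8 medians under the alternatives, 249 moved by less than the SD over barcode sets; for mural-like cells that SD is 2.91, so stability there says nothing. The P2-like median (-0.34) was -0.67 at resolution 0.4, -0.49 thinned to 200 UMIs, -0.48 with cells called by markers, -0.48 with DESeq2 size factors, and, chosen after seeing the data, -0.48 for KO5 against WT4, -0.46 within code p3 (-0.35 within p1, -0.44 within p2) and -0.051 per stromal marker UMI. The all stromal median (-0.28) was -0.46 at resolution 0.4, -0.45 with cells called by markers, -0.44 with TMM, -0.47 with DESeq2 size factors, -0.44 within code p2 and -0.064 per stromal marker UMI. TMM shifted all P2-like log2 ratios by -0.12 and DESeq2 by -0.14. The P3-like median (-0.14) was -0.54 with the 10 genes among the features, -0.55 thinned, -0.75 within code p1 and 0.081 per stromal marker UMI, and the P1-like median (-0.31) was 0.17 for KO5 against WT3. The endothelial-like median (-0.03) was 0.56 at a minimum of 200 genes, 0.34 within code p1 and ran from -0.39 (without 1 WT set) to 0.14 with single sets left out. P2-like over P1-like in KO (0.52) was 0.023 at resolution 0.4, -0.27 thinned and -0.00622 with cells called by markers. Among genes whose interval excluded 0, those that reversed were Col4a1 (0.20, KO5 against WT3) and Lama4 (0.090 with mixed cells out, 0.19 within p3) in P1-like, Lamb1 in P3-like (0.085 at 200 genes, 0.0783 for KO5 against WT3, 0.17 within p1, 0.40 within p3), Lamb2 in endothelial-like (0.25 within p1, 0.048 within p3), and in all stromal cells Col15a1 (0.10 at 200 genes) and Nid1 (-0.053 at resolution 0.4, -0.16 thinned, -0.11 called by markers, -0.00406 for KO5 against WT3, -0.042 within p3). Counting all of the 10 genes and all alternatives, 3 of 10 kept their sign throughout in P1-like, 6 in P2-like, 1 in P3-like and 1 in endothelial-like cells. The share of all genes in the table that kept their sign is not given here. UMI counts also differ between classes, with 951 KO and 594 WT UMIs of Col4a1 in P2-like and 115 and 130 in P3-like cells. The cause of these changes was not tested. Leaving out mixed cells removed 46.4% of P2-like cells.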

Other observations

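Clusters that matched no marker list held 2962 KO and 369 WT cells with a median of 209 and 228 UMIs a cell. They carried Col4a1 at 817 CPM in KO (753 to 886; 592 UMIs) and 2039 CPM in WT (1762 to 2348; 193 UMIs), which was 23.7% of all KO and 15.7% of all WT Col4a1 UMIs. Both levels lie above the lymphocytes of the same mouse. The Lamb2 share of both beta chains in them was 28.8% in KO and 12.3% in WT, so that the share in the WT cells was near that of P2-like cells.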
